A study of Mus musculus with 10 samples.

Results

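Matricellular proteins are secreted into the extracellular matrix but act less as building blocks than as signals: they bind integrins, syndecans, CD44, CD36 or CD47 on cells, and collagens, growth factors and proteases around them. In the adult heart most are sparse at rest and are known for their return during injury and repair, when they alter cell adhesion, matrix assembly and inflammation. The members of the set described here were picked by gene name, with earlier results of these data known. The set holds 10 of the 54532 genes in the count table: tenascin C (Tnc), the thrombospondins Thbs1, Thbs2, Thbs3 and Thbs4, periostin (Postn), osteopontin (Spp1), the SPARC family members Sparc and Sparcl1, and fibronectin (Fn1), a structural glycoprotein that shares their receptors. All 10 passed the filter on low counts, as did 13864 genes in all.

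Whole hearts of C57BL/6 mice, 8 weeks of age, were profiled by RNA sequencing in 2 groups, 5 libraries of saline-injected controls and 5 taken 24 h after lipopolysaccharide (LPS), the endotoxin of Gram-negative bacteria used to model sepsis. No transgene or other treatment is named for either group. The labels name no sex, LPS dose or route. The labels number the libraries as separate mice.

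Total counts lay between 14607969 and 17012372 per library. Libraries differed in 39.9% of tested genes between the groups (edgeR adjusted p under 0.05), with 18.9% rising and 21.0% falling, so a change is common in this comparison. Saline replicate 5 stood apart: on the leading axis of a principal component analysis (1000 variable genes) it lay at -0.563, with the other saline libraries between -67.0 and -55.1 and the LPS libraries between 43.7 and 55.0. Leaving it out is reported where that changed the call of a member or moved its value most, and for the related lists. Cardiomyocyte markers were high in both groups (8 of 8 tested, 0 past the threshold, summed level 41004 to 49360 CPM in saline and 43283 to 47712 CPM in LPS libraries), where CPM are read counts scaled to a common library size after TMM.

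After LPS, 4 of the 10 matricellular genes rose and 2 fell, against 18.9% and 21.0% of all tested genes (39.9% in both directions). Tnc, Thbs1, Thbs4 and Fn1 rose, with fold changes of 10.6, 6.35, 3.35 and 1.82. Thbs2 and Sparcl1 fell, to 0.345 and 0.570 of their saline level. Postn, Spp1, Sparc and Thbs3 did not pass the threshold. The groups did not overlap in Tnc, Thbs1 and Fn1, which were higher in LPS libraries, and in Thbs2 and Sparcl1, which were lower, whereas groups without overlap made up 14.3% and 14.1% of all tested genes in these directions. The median absolute log2 fold change of the members was 1.17, against 0.32 over all tested genes, and 5 of 10 changed by at least 2-fold in the estimate, against 17.5% of all. Spp1 is among these 5 although it did not pass (1.48, edgeR adjusted p = 0.0995). The median of the members lies between Spp1 and Fn1 (0.86), so both values lean on Spp1. Without saline replicate 5, 4 rose and 3 fell, the addition being Sparc, where 44.0% of 14123 tested genes passed, 21.0% rising and 22.9% falling.

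**Figure D1:**
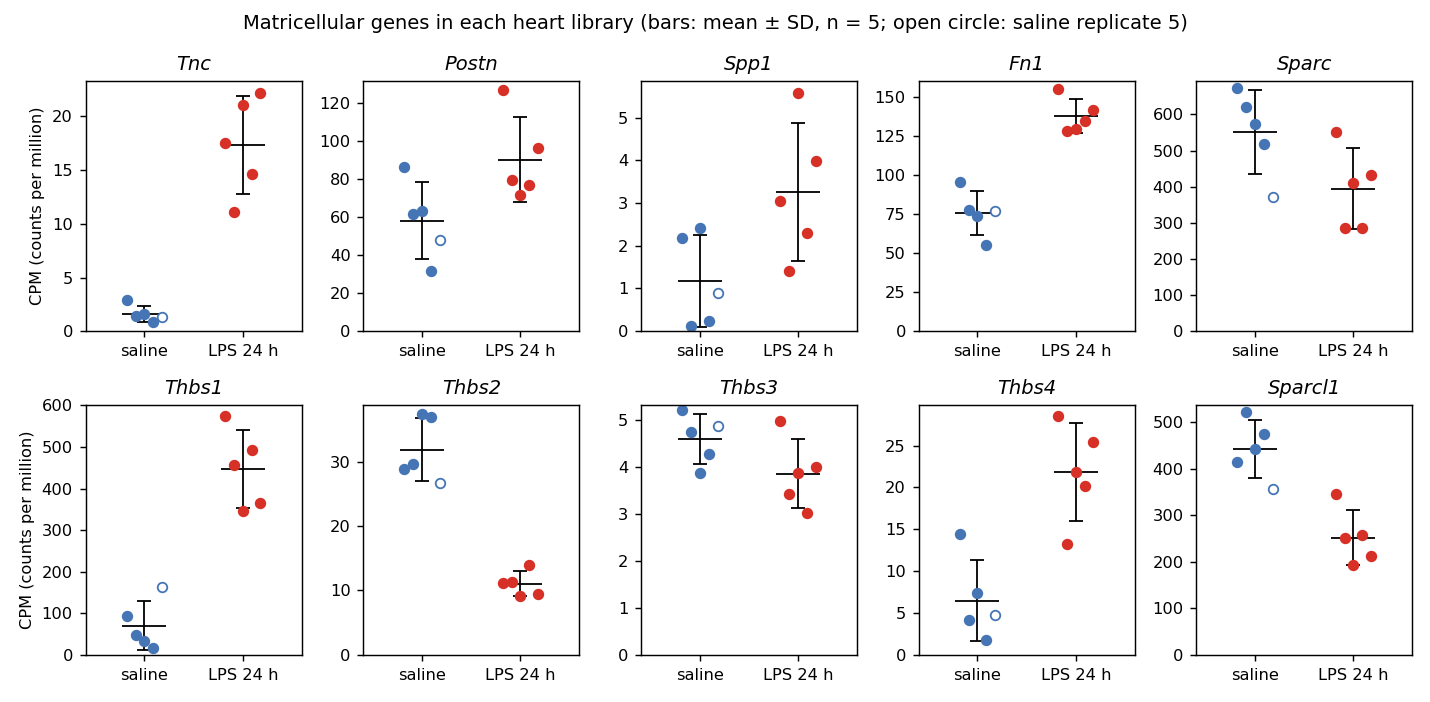
Scaled read counts (CPM, vertical axes, linear, from 0) of each of the 10 genes in the 5 saline (blue) and 5 LPS (red) libraries, with mean ± SD as bars and saline replicate 5 as an open circle. The groups lie fully apart in Tnc, Thbs1, Fn1, Thbs2 and Sparcl1 and overlap in Thbs3, Thbs4, Postn, Spp1 and Sparc.

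Tenascin C, a large hexameric glycoprotein that loosens cell adhesion and is a ligand of Toll-like receptor 4 and of several integrins, had the largest change of the set. Tnc (ENSMUSG00000028364, GRCm38 chromosome 4, 63959785 to 64047015, minus strand) was at 2.87, 1.39, 1.57, 0.867 and 1.36 CPM in saline replicates 1 to 5. It was at 17.5, 11.1, 21.1, 14.6 and 22.2 CPM in LPS replicates 1 to 5. Every LPS library was above every saline library, and saline replicate 5 lay within the range of the other saline libraries. The log2 fold change was 3.41 ± 0.28 (SE, n = 5 per group, edgeR adjusted p = 1.61e-06), with a 95% interval of 2.80 to 4.02. In order of log2 fold change it ranked 179 among 13864 tested genes. Saline levels rested on few reads, 15 to 55 per library, against 143 to 344 in LPS libraries.

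The 4 thrombospondins went different ways. Thbs1 and Thbs2 form trimers, carry the type 1 repeats that bind CD36 and are known as inhibitors of angiogenesis, and Thbs1 also activates latent TGF-beta. Thbs3 and Thbs4 form pentamers and lack those repeats. Thbs4 is known in muscle and tendon matrix and in the stress response of cardiomyocytes.

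Thbs1 (ENSMUSG00000040152, chromosome 2, 118111876 to 118127133, plus strand) was at 93.2, 47.1, 32.8, 16.2 and 163 CPM in saline replicates 1 to 5. In LPS replicates 1 to 5 it was at 574, 458, 347, 492 and 364 CPM. The groups did not overlap, but saline replicate 5 was the highest saline library and replicate 4 the lowest. Thbs1 rose by a log2 fold change of 2.67 ± 0.60 (SE, n = 5 per group, edgeR adjusted p = 0.00776), and 3.24 without saline replicate 5 (adjusted p = 0.00114), which is a fold change of 9.45 in place of 6.35. Thbs1 is stored in platelets in large amounts. Of the 8 platelet markers examined, 4 were tested and 0 passed the threshold, against 39.9% of all tested genes. Their summed level was 12.5 to 21.3 CPM in saline and 19.0 to 27.2 CPM in LPS libraries. Gp1bb had 0 reads in all libraries. The lowest platelet sum belonged to saline replicate 5, the saline library with the most Thbs1, and the same library had the highest neutrophil marker sum of its group, 21.8 CPM. Their part in its Thbs1 level was not tested.

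Thbs2 (ENSMUSG00000023885, chromosome 17, 14665500 to 14694235, minus strand) was at 28.8, 29.6, 37.4, 36.9 and 26.6 CPM in saline replicates 1 to 5. It was at 11.2, 11.3, 9.14, 14.0 and 9.44 CPM in LPS replicates 1 to 5, below every saline library. The estimate on the log2 scale was -1.54 ± 0.14 (SE, n = 5 per group, edgeR adjusted p = 2e-06), and -1.59 without saline replicate 5. Saline replicate 5 was the lowest saline library for Thbs2. In FPKM, the authors' level per kilobase of gene length, the ratio of Thbs1 to Thbs2 within a library was 3.73, 1.83, 1.01, 0.507 and 7.04 in saline replicates 1 to 5 and lay between 40.5 and 59.1 in LPS libraries. A ratio within a library does not depend on how libraries are scaled. The pair was chosen after its values were seen, so the ratio was not tested.

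Thbs4 (ENSMUSG00000021702, chromosome 13, 92751590 to 92794818, minus strand) was at 14.4, 4.17, 7.34, 1.73 and 4.81 CPM in saline replicates 1 to 5. It was at 28.5, 13.2, 21.9, 20.2 and 25.4 CPM in LPS replicates 1 to 5. Saline replicate 1 lay above LPS replicate 2, the only crossing between the groups. The log2 fold change was 1.74 ± 0.48 (SE, n = 5 per group, edgeR adjusted p = 0.0187) and 2.29 without saline replicate 1. Thbs3 (ENSMUSG00000028047, chromosome 3, 89215180 to 89226837, plus strand) ranged from 3.86 to 5.21 CPM over saline and from 3.03 to 4.97 CPM over LPS libraries. Its log2 fold change was -0.25, with a 95% interval of -0.62 to 0.13 (edgeR adjusted p = 0.286). Thbs3 lies within the bounds of Mtx1 on the other strand (847 saline and 636 LPS reads), and no source used here says if counting was by strand, so the value of Thbs3 is uncertain.

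Fibronectin, which forms the provisional matrix that cells enter after injury and binds the integrin alpha5beta1, rose with little spread between LPS hearts. Fn1 (ENSMUSG00000026193, chromosome 1, 71585520 to 71653200, minus strand) was at 95.4, 77.9, 74.2, 55.3 and 76.9 CPM in saline replicates 1 to 5. It was at 156, 129, 129, 135 and 142 CPM in LPS replicates 1 to 5. No saline library reached an LPS library, and the coefficient of variation was 18.8% in saline and 8.03% in LPS hearts. Fn1 rose by 0.86 ± 0.12 on the log2 scale (SE, n = 5 per group, edgeR adjusted p = 8.5e-05), and by 0.87 without saline replicate 5. The gene that codes for the alpha5 chain, Itga5, rose by 0.61 ± 0.11 on the same scale (adjusted p = 0.000603) and was chosen for mention after its value was seen.

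Periostin, a fasciclin-domain protein of activated fibroblasts and of heart valves, was higher on average in LPS hearts without passing the threshold. Postn (ENSMUSG00000027750, chromosome 3, 54361109 to 54391037, plus strand) was at 86.4, 61.6, 63.3, 31.7 and 48.1 CPM in saline replicates 1 to 5. It was at 127, 79.6, 71.8, 77.0 and 96.3 CPM in LPS replicates 1 to 5. Saline replicate 1 exceeded 3 LPS libraries. Between the groups the log2 fold change was 0.63 ± 0.25 (SE, n = 5 per group, edgeR adjusted p = 0.0737), with a 95% interval of 0.07 to 1.20. Without saline replicate 1 Postn rose, by 0.84 (edgeR adjusted p = 0.0177). Without saline replicate 5 it did not pass (0.57, adjusted p = 0.130), and 16 of the 19 alternative settings kept the call. Of the 8 fibroblast markers 0 rose and 2 fell (Pdgfra and Lum), or 25% against 39.9% of all tested genes. Their median log2 fold change was -0.17, and their summed level was 2657 to 3092 CPM in saline and 2373 to 3151 CPM in LPS libraries. In bulk tissue a different number of cells of a type and a different amount of RNA per cell cannot be told apart.

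Osteopontin, a phosphoprotein ligand of integrins and CD44 that macrophages make after injury, was the least reliably measured member. Spp1 (ENSMUSG00000029304, chromosome 5, 104435118 to 104441050, plus strand) had 42, 2, 43, 4 and 15 reads in saline replicates 1 to 5, or 2.19, 0.111, 2.41, 0.231 and 0.890 CPM. It had 44, 18, 91, 28 and 55 reads in LPS replicates 1 to 5, or 3.04, 1.40, 5.58, 2.29 and 3.99 CPM. Saline libraries differed by 21.6-fold, and saline replicates 1 and 3 lay within the LPS range. For Spp1 the log2 fold change was 1.48 ± 0.66 (SE, n = 5 per group, edgeR adjusted p = 0.0995), with a 95% interval of 0.02 to 2.94. Spp1 thus did not pass with this test, nor without saline replicate 5 (1.40, adjusted p = 0.155). With limma voom it did (2.09, adjusted p = 0.0411), while 17 of the 19 alternative settings kept the call. Of the 8 macrophage markers 0 rose and 3 fell, or 37.5% past the threshold against 39.9% of all tested genes. Their summed level was 296 to 418 CPM in saline and 254 to 356 CPM in LPS libraries. Of the 4 monocyte markers 3 rose (Ly6c2, Plac8 and Chil3) and Ccr2 fell, against 18.9% and 21.0% of all tested genes. Their median log2 fold change was 1.89, with sums of 4.26 to 7.48 CPM in saline and 6.30 to 15.5 CPM in LPS libraries. Neutrophil marker sums were 1.23 to 3.73 CPM in saline replicates 1 to 4 and 21.8 CPM in saline replicate 5. They were 13.0 to 37.3 CPM in LPS libraries. Of 4 tested neutrophil markers 2 rose, or 50% against 39.9% of all tested genes, and Elane had 0 reads in all libraries. Without saline replicate 5, 4 of 4 rose, where 21.0% of all tested genes rose. The part of these cell types in the values of the matricellular genes was not tested.

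SPARC and its relative SPARC-like 1 (hevin) are calcium-binding, counter-adhesive glycoproteins. SPARC binds collagen and is known for its role in collagen maturation in fibroblasts, and SPARC-like 1 is abundant in vessel walls. Sparcl1 (ENSMUSG00000029309, chromosome 5, 104079111 to 104113733, minus strand) was at 415, 521, 443, 475 and 357 CPM in saline replicates 1 to 5. In LPS replicates 1 to 5 it was at 345, 251, 193, 257 and 214 CPM. The groups did not overlap, although saline replicate 5 and LPS replicate 1 came close. The log2 fold change was -0.81 ± 0.15 (SE, n = 5 per group, edgeR adjusted p = 0.000622), and -0.88 without saline replicate 5.

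Markers of endothelial cells moved in the same direction as Sparcl1. All 8 of them fell, against 21.0% of all tested genes, with a median log2 fold change of -1.32. Their summed level was 1588 to 2059 CPM in saline replicates 1 to 4 and 1040 CPM in saline replicate 5. It was 599 to 795 CPM in LPS libraries. The mural cell markers, for pericytes and smooth muscle, fell in 1 of 7 tested members, or 14.3%, against 21.0% of all tested genes. Their sums were 1397 to 1617 CPM in saline and 1144 to 1340 CPM in LPS libraries. Their part in the change of Sparcl1 was not tested. Gm26703, an antisense gene that overlaps Sparcl1, had 57 saline reads and 2 LPS reads, few beside the 56939 reads of Sparcl1.

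Sparc (ENSMUSG00000018593, chromosome 11, 55394500 to 55423183, minus strand) was at 673, 621, 573, 518 and 372 CPM in saline replicates 1 to 5. It was at 553, 287, 410.0, 286 and 433 CPM in LPS replicates 1 to 5. Saline replicate 5 lay below 3 of the 5 LPS libraries, and the log2 fold change was -0.49 ± 0.20 (SE, n = 5 per group, edgeR adjusted p = 0.0803). Sparc fell without saline replicate 5 (-0.60, adjusted p = 0.0158) and without LPS replicate 1 (-0.63, adjusted p = 0.0170), so its call turned on either of these libraries. It also fell with upper quartile scaling (-0.65, adjusted p = 0.0304).

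**Figure D2:**
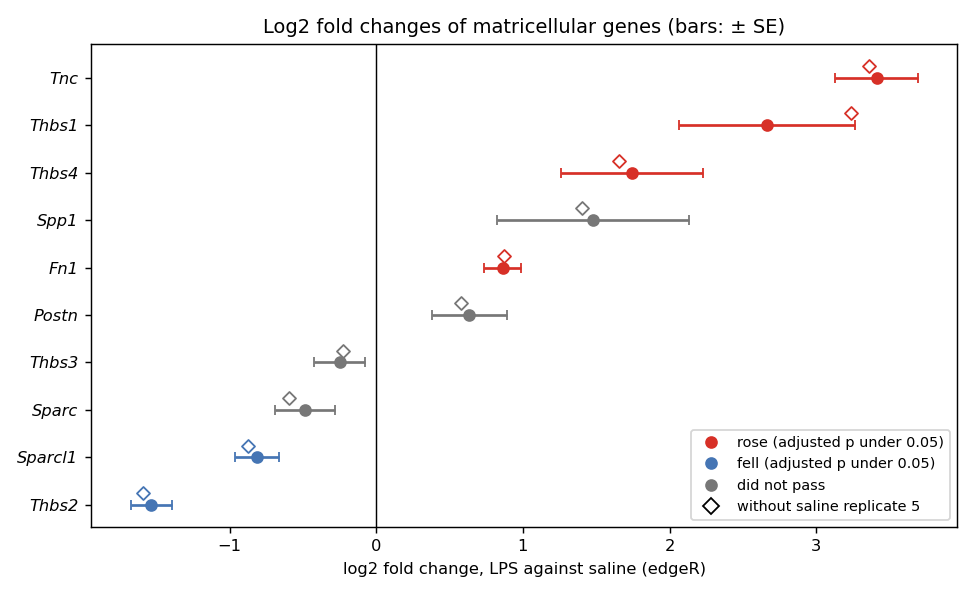
Log2 fold changes of LPS against saline hearts with SE bars (circles, all 10 libraries) and without saline replicate 5 (diamonds), coloured by the edgeR call with all libraries. Tnc is highest at 3.41 and Thbs2 lowest at -1.54, and the largest shift on leaving out saline replicate 5 belongs to Thbs1, from 2.67 to 3.24.

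Levels can be compared between genes only per length, for which the authors' FPKM serve. In saline hearts Sparcl1 and Sparc led, at 159 ± 21.6 and 153 ± 31.7 FPKM (SD, n = 5), and their order differed between libraries. Thbs1 followed at 12.2 ± 10.3 FPKM, or 8.20 FPKM over saline replicates 1 to 4, then Postn at 7.05 ± 2.44, Fn1 at 6.85 ± 1.29 and Thbs2 at 4.79 ± 0.739 FPKM. Thbs4 (2.08 ± 1.56 FPKM), Thbs3 (1.00 ± 0.115 FPKM), Spp1 (0.746 ± 0.689 FPKM) and Tnc (0.218 ± 0.101 FPKM) were lowest. Of the 9 neighbouring pairs in this order, only Sparc and Thbs1 had ranges that did not overlap between the saline libraries.

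In LPS hearts Sparc (112 ± 32.2 FPKM), Sparcl1 (92.3 ± 21.5 FPKM) and Thbs1 (79.1 ± 16.6 FPKM) formed the upper group, and Sparcl1 exceeded Thbs1 in 5 of 5 libraries. Fn1 was at 12.7 ± 1.08, Postn at 11.2 ± 2.83 and Thbs4 at 7.15 ± 1.93 FPKM. Tnc was at 2.40 ± 0.642, Spp1 at 2.13 ± 1.05, Thbs2 at 1.69 ± 0.292 and Thbs3 at 0.860 ± 0.166 FPKM. Ranges did not overlap between Thbs1 and Fn1, Thbs4 and Tnc, and Thbs2 and Thbs3. Tnc thus ranked last of the 10 genes in saline and the seventh in LPS hearts, and Thbs2 went from the sixth to the ninth place.

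The summed FPKM of the 10 genes was 347 ± 43.0 in saline and 321 ± 63.1 in LPS hearts, a difference smaller than the spread between libraries. In CPM, the sum was 1056 to 1416 in saline and 1213 to 1819 in LPS libraries, so the direction depended on the measure. The make-up of the FPKM sum differed more. Sparc and Sparcl1 together held 82.7% to 94.3% of the sum in saline libraries and 59.0% to 65.7% in LPS libraries. Thbs1 held 0.845% to 10.1% in saline and 21.0% to 29.3% in LPS libraries, the highest saline share being that of replicate 5. Neither share overlapped between the groups. Both are parts of the same sum, so a rise of the Thbs1 share lowers the other, and neither was tested.

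**Figure D3:**
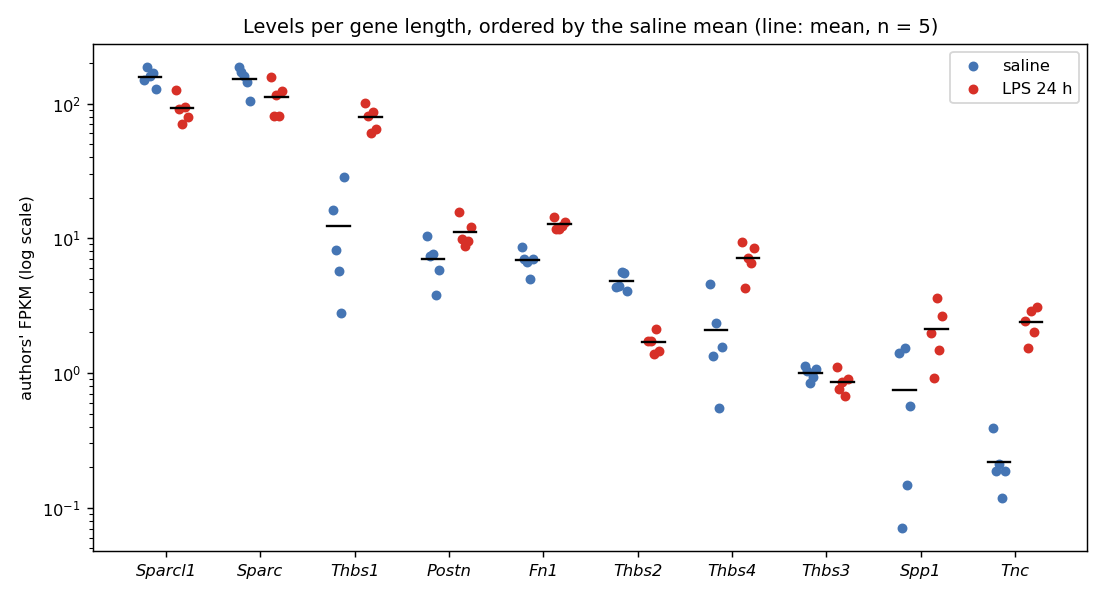
The authors' FPKM (log axis) of the 10 genes in each saline (blue) and LPS (red) library, ordered by the saline mean, with group means as lines. Sparc and Sparcl1 stay near the top in both groups, Thbs1 moves from 12.2 to 79.1 FPKM on average, and Tnc from 0.218 to 2.40 FPKM.

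Members differed in how much they varied between mice of a group. The coefficient of variation in saline libraries was 92.5% for Spp1, 83.8% for Thbs1, 74.9% for Thbs4 and 46.4% for Tnc, against 11.4% for Thbs3, 14.0% for Sparcl1 and 15.5% for Thbs2. In LPS libraries it was 49.4%, 20.9%, 26.6% and 26.5% for the variable genes, lower than in saline. For the others it was 19.0%, 23.2% and 17.6%, higher than in saline. These genes were named as the extremes in saline, so shifts towards the middle can follow from the choice alone, and no test was made. The genes between them went both ways: Postn from 34.7% to 24.9%, Fn1 from 18.8% to 8.03% and Sparc from 20.9% to 28.5%. The same libraries tended to be high or low across genes. LPS replicate 1 was the highest LPS library for 7 of 10 genes, and saline replicate 1 the highest saline library for 6. Saline replicate 4 was the lowest for 5 genes, among them Tnc, Thbs1, Thbs4, Postn and Fn1. Spp1 was high in saline replicates 1 and 3, and Thbs1 in saline replicates 1 and 5. With 5 libraries per group no correlation between genes was computed.

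**Figure D4:**
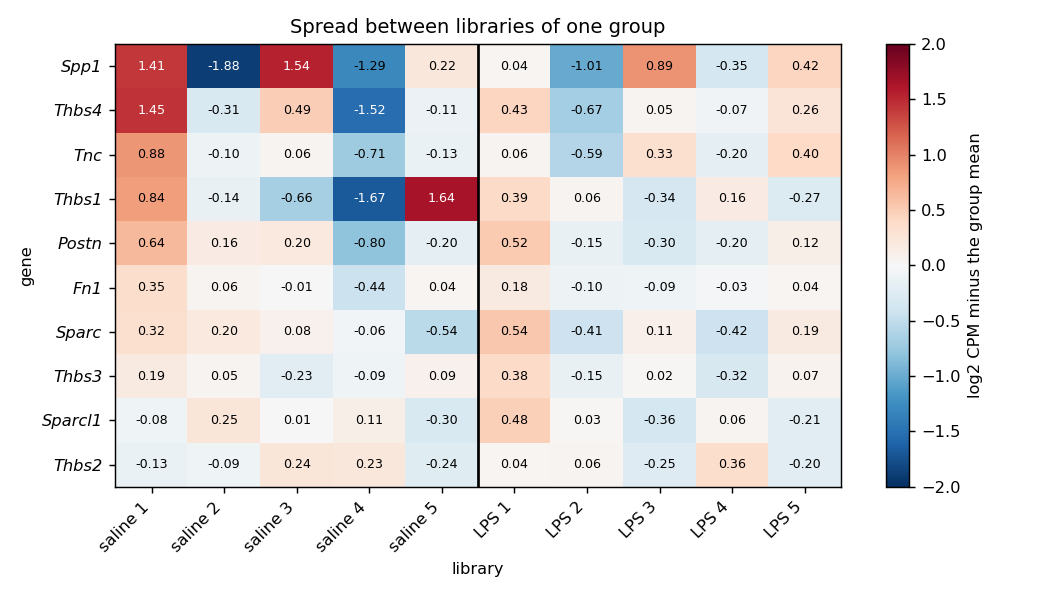
Log2 CPM of each gene (rows) in each library (columns) minus the mean of its own group, red above and blue below it. Saline replicate 1 is above its group mean in 8 of 10 genes and saline replicate 4 below it in 8. Thbs2, Thbs3, Sparcl1 and Fn1 stay within 0.50 of their group means in every library.

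Promoter windows are shown for the genes with a change of at least 2-fold past the threshold that have an entry in RefSeq's table, which leaves out Thbs1, to set the sequences of rising and falling members side by side. The table, for GRCm38.p6, held 7 of the 10 members, among them Tnc and Thbs4, which rose, and Thbs2, which fell. Each run is the 250 bases before the annotated start, 5′ to 3′ on the gene's strand, and capitals mark matches to any of the motifs named after them. Tnc lies at chr4:64047016-64047265, Thbs4 at chr13:92794819-92795068 and Thbs2 at chr17:14694263-14694512, all on the minus strand.
Tnc: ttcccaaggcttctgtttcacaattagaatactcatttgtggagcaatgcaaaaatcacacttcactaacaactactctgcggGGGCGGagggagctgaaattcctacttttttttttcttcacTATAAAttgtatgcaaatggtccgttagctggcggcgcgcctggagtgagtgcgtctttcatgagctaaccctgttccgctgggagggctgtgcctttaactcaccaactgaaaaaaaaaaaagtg
Thbs4: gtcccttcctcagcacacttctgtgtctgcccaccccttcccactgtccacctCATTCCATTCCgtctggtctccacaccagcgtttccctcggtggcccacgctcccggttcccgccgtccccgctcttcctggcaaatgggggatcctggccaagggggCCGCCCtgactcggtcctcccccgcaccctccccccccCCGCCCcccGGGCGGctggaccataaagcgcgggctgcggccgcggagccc
Thbs2: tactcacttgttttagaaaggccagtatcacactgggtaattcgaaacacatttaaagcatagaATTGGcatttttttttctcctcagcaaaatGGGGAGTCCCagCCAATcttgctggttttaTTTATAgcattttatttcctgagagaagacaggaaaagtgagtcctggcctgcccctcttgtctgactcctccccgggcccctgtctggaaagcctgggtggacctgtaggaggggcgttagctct

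Searched on both strands were TGANTCA (AP-1), the NF-kappaB and CArG motifs, the TATA box TATAAA, the CCAAT box, the GC box GGGCGG and the TEAD motif GGAATG, 7 in all, with matches allowed to overlap. The Tnc window held a TATAAA from base 126 to 121 before the start and a GC box. That of Thbs4 held 3 GC boxes and a pair of TEAD matches that overlap at base 192 before the start. It was 70.8% G and C, against 44.8% for Tnc and 46.8% for Thbs2. The Thbs2 window held a match to the NF-kappaB motif from base 156 to 147 before the start. It also held a pair of CCAAT matches, shown as ATTGG and CCAAT. Its TATAAA, unlike that of Tnc, was on the opposite strand and is shown as TTTATA. In all 32851 windows of this length, 7.25% held an NF-kappaB match, 6.75% an AP-1 match, 12.4% TATAAA, 33.9% CCAAT, 32.7% a GC box, 12.6% a TEAD match and 1.47% a CArG match. These matches describe letters only, and no AP-1 or CArG match was present in these 3 windows.

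Of 20 tested genes for receptors of these proteins 9 rose and 4 fell, or 65%, where 39.9% of all tested genes passed, with a median log2 fold change of 0.25 against -0.02 over all. Without saline replicate 5, 10 rose and 4 fell. Sdc4, a syndecan that binds fibronectin, averaged 29.8 ± 24.9 CPM in saline against 250 ± 28.4 CPM after LPS (SD, n = 5 each). It rose by 3.07 ± 0.48 on the log2 scale (SE, edgeR adjusted p = 0.00102), and by 3.74 without saline replicate 5. Cd44, the hyaluronan and osteopontin receptor, went from 17.7 ± 7.53 to 116 ± 7.54 CPM (2.71 ± 0.24, adjusted p = 8.06e-06; 2.998 without saline replicate 5). Egfr, to which repeats of tenascin C bind, went from 10.9 ± 3.33 to 49.0 ± 11.3 CPM (2.17 ± 0.21, adjusted p = 6.91e-06; 2.38 without that library). Stab1, a scavenger receptor that takes up SPARC, fell from 75.6 ± 15.2 to 27.4 ± 4.77 CPM (-1.46 ± 0.16, adjusted p = 9.1e-06).

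Cd47 and Cd36, which are among the receptors of thrombospondins, differed: Cd47 passed the threshold and Cd36 did not. Cd47 averaged 78.6 ± 16.9 CPM in saline against 247 ± 13.9 CPM after LPS, a rise of 1.65 ± 0.13 on the log2 scale (edgeR adjusted p = 5.84e-07, n = 5 each), or 1.79 without saline replicate 5. Cd36 averaged 1762 ± 186 against 1509 ± 118 CPM (adjusted p = 0.0698). Itgb1, the beta chain shared by many of these integrins, averaged 524 ± 22.0 against 587 ± 20.5 CPM (adjusted p = 0.0911). Cd47, Cd36 and Itgb1 were picked for mention after their values were seen.

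Of the other matricellular genes, 16 of 21 were tested, of which 2 rose and 9 fell, with and without saline replicate 5, against 18.9% and 21.0% of all tested genes. They had a median log2 fold change of -0.39. Wisp2, also called Ccn5, averaged 7.15 ± 3.07 CPM in saline against 1.14 ± 0.498 CPM after LPS (SD, n = 5 each; log2 change -2.63 ± 0.34 SE, edgeR adjusted p = 4.17e-05). Cyr61, also called Ccn1, fell from 41.3 ± 5.41 to 18.5 ± 4.70 CPM (-1.16 ± 0.17), and Tgfbi, a relative of periostin, from 29.7 ± 2.27 to 13.8 ± 5.21 CPM (-1.11 ± 0.19). Wisp1, also called Ccn4, rose from 2.54 ± 0.815 to 7.57 ± 1.97 CPM (1.57 ± 0.25, adjusted p = 0.000213).

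Of 22 collagens and other matrix partners 3 rose and 6 fell, which is 40.9% past the threshold against 39.9% of all tested genes, with a median log2 fold change of -0.15. Without saline replicate 5, 3 rose and 7 fell. Those that fell most were elastin (Eln), by 1.97 ± 0.44 (SE, edgeR adjusted p = 0.00722, n = 5 each), the crosslinking enzyme Loxl1, by 1.06 ± 0.21, and fibulin 5 (Fbln5), by 0.60 ± 0.10 on the log2 scale. Other elastic fibre genes of the list went both ways. The crosslinking enzyme Lox rose by 1.52 ± 0.20 (edgeR adjusted p = 5.72e-05), and fibulin 2 (Fbln2) fell by 0.35 ± 0.12 (adjusted p = 0.0301). Fbn1 (0.20) and Fbln1 (-0.01) did not pass. Lox, Fbln2, Fbn1 and Fbln1 were picked for mention after their values were seen. Versican (Vcan), a hyaluronan-binding proteoglycan, rose from 29.1 ± 8.63 to 125 ± 26.1 CPM (2.09 ± 0.21, adjusted p = 1.64e-05).

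**Figure D5:**
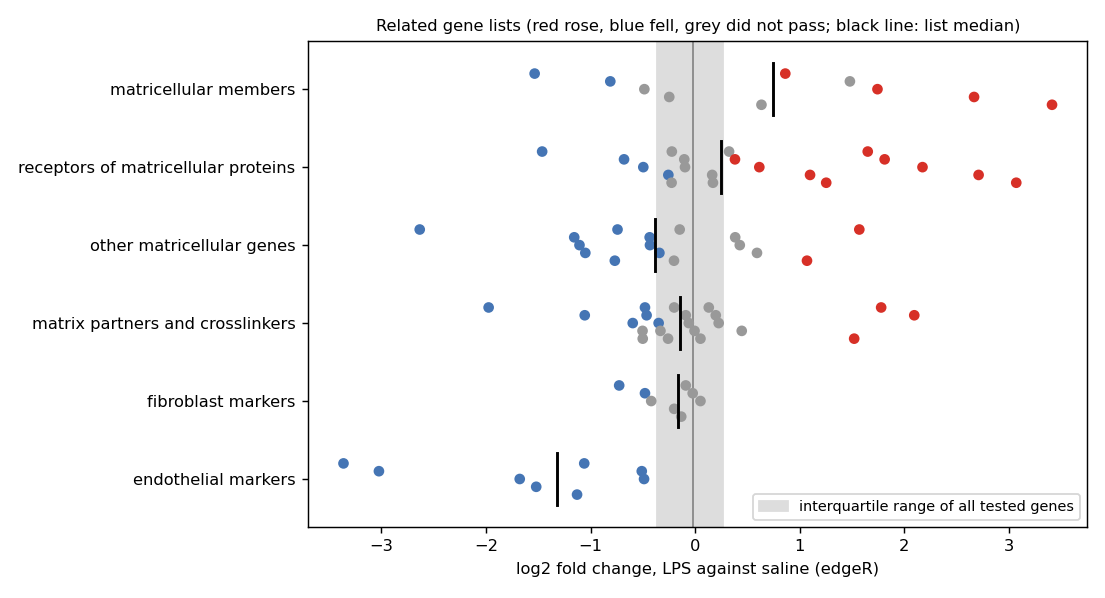
Log2 fold changes of the tested genes in 6 lists, each point a gene, with list medians as black lines and the interquartile range of all tested genes as the grey band. The members spread from -1.54 to 3.41 around a median of 0.75, the receptors around 0.25, and the 8 endothelial markers all lie below 0 around a median of -1.32.

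The authors' deposited table of Reactome terms lists 4 members among its rising genes (Tnc, Thbs1, Thbs4 and Fn1) and 2 among its falling genes (Thbs2 and Sparcl1), in 30 of its 1016 terms. Of these 30 terms 6 had an adjusted p under 0.05 by the authors' values, and Fn1 was listed in 27. In the authors' deposited table, the term for receptor tyrosine kinase signalling holds Fn1, Thbs1, Thbs4 and Thbs2 (adjusted p = 0.000876), and that for PDGF signalling holds Thbs1, Thbs4 and Thbs2 (adjusted p = 0.0121). The matrix terms there had larger values, with adjusted p = 0.0821 for integrin cell surface interactions and adjusted p = 0.177 for extracellular matrix organization, each with Tnc, Thbs1 and Fn1. These counts come from the same libraries and are no separate evidence.

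For the 3 members with the largest change past the threshold, the genes with the nearest pattern were sought among 13120 others. The measure was the root mean square difference over the 10 libraries of log2 CPM centred on each gene's own mean. Nearest to Tnc were Serpina3m, a serine protease inhibitor (0.39), Rrad, a small GTPase of heart and muscle (0.46), and Prg4, the lubricating proteoglycan of joints (0.51). Prg4 rose from 13.9 ± 6.43 to 84.8 ± 39.1 CPM, and Rrad from 74.5 ± 9.40 to 624 ± 88.2 CPM (SD, n = 5 per group). The measure spans both groups, so a gene near Tnc rises by selection, and these rises are no separate evidence. Nearest to Thbs1 were A530040E14Rik (0.44), Plekha4 (0.46) and Hap1 (0.46). Serpina3m had 4 reads in the saline libraries together and 142 in the LPS libraries, and A530040E14Rik 13 and 136. Both reached the minimum mean level only through the LPS libraries, and their saline level in the measure is set largely by the prior count, so their place in the order is uncertain. The log2 fold change of Serpina3m was 5.26, against 3.41 for Tnc. Nearest to Thbs4 were Itga2, an integrin chain that binds collagen (0.52), Prg4 (0.56) and Vcan (0.57). Itga2 averaged 0.974 CPM in saline (88 reads together) and 3.52 CPM in LPS libraries (248 reads). It too reached the minimum mean level only through the LPS libraries, so its place is also uncertain.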

How the data were processed

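Raw read counts by gene, 1 column for each library, and FPKM, which are counts divided by gene length and by a scaled library size, are as the authors deposited them, per the file headers. Bowtie 0.12.2 and mm9 are named in the submitters' processing notes, with no role or order; no source used here gives the counting tool, the annotation or the use of strand. All 10 members have the same start and end in GENCODE M21, so coordinates are given as GRCm38. The tests used edgeR 4.0.16 in R 4.3.3, with filterByExpr (minimum count 10, minimum total 15), TMM scaling, the quasi-likelihood F-test with robust dispersions, and Benjamini-Hochberg adjustment over 13864 genes, threshold 0.05. SE were derived from the F statistic. FPKM served only for levels between genes. The authors' deposited p-values and adjusted p-values per Reactome term, with counts of differential genes, were quoted and not recomputed. A further 20 sample columns were not used; those for LPS are named for 3 h in 2 tables and equal the 24 h FPKM, while the labels give 24 h. The labels were followed. The scripts were checked on simulated counts.

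Members and lists were chosen with earlier results of these data known. Named genes are all members; from each of 3 related lists, the 3 largest changes past the threshold in the more frequent direction and the largest in the other; and the 3 nearest patterns to each of the 3 most changed members (mean of at least 1 CPM, prior count 2). Other genes are marked as picked after their values were seen. No replicates matched within sampling noise: the lowest chi-square per degree of freedom between libraries of a group was 9.40. Alternatives were other scalings and filters, DESeq2 1.42.0, limma 3.58.1 voom, a block on the replicate number, and leaving out each library.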

Additional observations from a re-analysis of the deposited data

How the results depend on the processing

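The calls of Tnc, Thbs1, Thbs4, Fn1, Thbs2 and Sparcl1 held under all 19 alternatives tried, and no member changed direction under any of them. Thbs4 had the least room, with an adjusted p of up to 0.0443 (without saline replicate 2), and Thbs1 came to 0.0225 without the same library. The number of members rising was 4 to 5 and the number falling 2 to 3 when a library was left out. Over all genes, leaving out a library gave 2277 to 2967 rising and 2355 to 3241 falling. Total count scaling gave 1712 rising and 5764 falling genes and 4 falling members, and upper quartile scaling 4407 falling genes. These scalings moved the median log2 fold change of the genes from -0.02 to -0.30 and -0.18, and the share of rising genes among those called from 47.3% to 22.9% and 31.1%. Sparc passed with both scalings (-0.76 and -0.65, giving 3 falling members with upper quartile) and Thbs3 with total count scaling (-0.51), and relative to the median of all genes they lay closer to their values with TMM.

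Postn passed with DESeq2 (0.66, adjusted p = 0.0174) and Spp1 with limma voom (2.09, adjusted p = 0.0411). Same-numbered libraries share only a number: the correlation of their deviations from the group means ran from -0.23 to 0.26, and 1 of 5 pairs exceeded 0.1. A replicate block gave 2582 rising and 2836 falling genes, 6 rising and 2 falling members, and 0 of 5 LPS libraries correlated best with the saline library of its own number. The setting of TMM without the 20 most abundant genes was chosen after seeing the data. Depth limits Spp1 most, with 106 saline and 236 LPS reads in all.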

Other observations

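Saline replicates 1 and 3, which had the most Spp1 of their group, also had the most Chad, Comp and Clec3a. By the measure of pattern used above, the genes nearest to Spp1 were Clec3a, a C-type lectin of cartilage (0.67), Thbs4 (0.70) and Cdo1 (0.75), and Comp, the fifth thrombospondin, and Chad, chondroadherin, were also among the nearest 5. These genes were picked after their values were seen, and no test was made. As they were taken from the genes nearest to Spp1 over the same libraries, shared high saline libraries are built into the choice. Clec3a averaged 0.844 CPM in saline and 1.55 CPM in LPS libraries. It reached the minimum mean level only through the LPS libraries, and its place rests in part on the prior count. Chad was at 6.36, 0.501, 4.71, 0.0578 and 1.13 CPM in saline replicates 1 to 5, the replicates 1 and 3 being high and 4 lowest. Comp was at 17.6, 4.56, 15.6, 2.20 and 5.22 CPM in the same libraries, and Clec3a had 40, 0, 35, 0 and 3 reads. In LPS libraries Chad lay between 2.18 and 6.29 CPM and Comp between 10.3 and 17.8 CPM, with replicate 2 lowest and replicate 1 highest in both. The order differed there from that of Spp1, which was highest in LPS replicate 3 (5.58 CPM), where Chad was at 3.74 CPM and Clec3a at 1.17 CPM, each the next to lowest. Neither passed the threshold between the groups (edgeR adjusted p = 0.475 for Chad and adjusted p = 0.416 for Comp).

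The gene with the pattern nearest to Thbs2 was Ecm2, an extracellular matrix gene, at a root mean square difference of 0.12 over the 10 libraries. Ecm2 averaged 51.2 ± 4.32 CPM in saline against 19.1 ± 2.75 CPM after LPS (SD, n = 5 each). Sparcl1 was nearest to Clec3b, which encodes tetranectin (0.088), which averaged 43.6 ± 6.28 and 24.3 ± 5.70 CPM. Ecm2, Clec3b and Col3a1 were picked after their values were seen. The measure spans both groups, so these genes share much of the shift of their member between the groups by selection. Sparc was nearest to Col3a1 (0.11), a collagen chain, which was at 353 ± 83.9 and 249 ± 89.6 CPM and did not pass the threshold (edgeR adjusted p = 0.148).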
